A study of Homo sapiens with 14 samples.

Results

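Non-additivity asks whether silencing PAX8 and SOX17 together changed a transcript by more or by less than the changes on silencing each alone would give when combined. It was measured in RNA from OVCAR4, an established cell line of high-grade serous ovarian carcinoma, as the log2 level in cells given both small interfering RNA (siRNA) pools, minus the level with the PAX8 pool, minus the level with the SOX17 pool, plus the mean of the controls. A contrast of 0 means that the log2 changes add up, so that the fold changes multiply; this is called the log-additive level below. All genes passing a filter on low counts were included, which gave 21032 genes of the 58219 in the deposited table. The contrast used 5 groups of 2 libraries: siNT1 and siNT2 with separate non-targeting control pools, siPAX8, siSOX17, and siDual with the PAX8 and SOX17 pools together. Each sample began with 300000 cells, reverse transfected at 120 nM with a Dharmacon ON-TARGETplus pool. The medium was changed at 24 hours, and RNA was taken at 72 hours. How the dose was divided between the pools in siDual is not given in the labels. Groups with a MECOM or a WT1 pool were in the same model but not in the contrast. Everything described here comes from 1 cell line.

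PAX8 is a paired-box transcription factor that specifies thyroid, kidney and Mullerian epithelium, and SOX17 is an HMG-box factor of endoderm, vascular endothelium and the same Mullerian epithelium. Both stay on in the secretory cells of the fallopian tube and in serous carcinoma, where they have been reported to bind each other and to share many sites. Knockdown of a pair of genes, alone and together, is the usual way to ask whether the effects of their loss combine, and the multiplication of fold changes is the usual reference for transcript levels.

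The 10 libraries of the contrast held 40832825 to 49803860 gene counts each. The 2 libraries of a group differed by more than sampling noise in all 5 groups. The labels do not say whether they came from separate cultures, so the p-values speak only to the spread between these libraries, which may be technical. Mitochondrially encoded transcripts took 5.34 to 6.13% of counts in the 4 control libraries and 9.27 to 10.98% in the 6 knockdown libraries. The share of ribosomal RNA was 0.612 to 0.712% in the control libraries and 1.36 to 1.59% in the others. In bulk RNA of this kind, fewer cells of a type and less RNA per cell cannot be told apart. Among marker genes of serous carcinoma, all 12 were tested, and their summed level was 4644 to 5434 CPM (counts normalised to the TMM-scaled library total; TMM is the trimmed mean of M-values) in the controls and 18890 to 21420 CPM in siDual, of which the keratin KRT7 made up 5442 and 5146. Of the 12, 6 were called higher and 5 lower in siDual than in the controls, with a median log2 change of 0.231. Over all genes tested, 28.9% were called higher and 27.3% lower in siDual. WT1, also a serous marker, was almost absent, at 0.394 ± 0.0451 CPM (SD, n = 4) in the controls.

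The targeted transcripts set the terms of the comparison. PAX8 (ENSG00000125618.16, minus strand of chromosome 2 at 113215997 to 113278950, hg38) stood at 196, 192, 206 and 225 CPM in the controls, 32.8 and 38.3 in siPAX8, 266 and 273 in siSOX17, and 52.8 and 50.6 in siDual. All 4 libraries given the PAX8 pool were below every other library, and both siDual libraries were above both siPAX8 libraries. PAX8 thus kept 17.4% of its control level in siPAX8 and 25.2% in siDual, a log2 difference of 0.54 ± 0.08 (SE) with an adjusted p of 0.000124 by the quasi-likelihood test of edgeR (Benjamini-Hochberg). SOX17 (ENSG00000164736.5, plus strand of chromosome 8 at 54457935 to 54460888) stood at 104 to 119 CPM in the controls, 77.9 and 82.9 in siPAX8, 15.7 and 13.1 in siSOX17, and 15.9 and 17.7 in siDual. It kept 13.0% of its control level in siSOX17 and 15.2% in siDual, a difference that did not pass the test (adjusted p = 0.228). The contrast was 0.14 ± 0.11 for PAX8 (adjusted p = 0.393) and 0.69 ± 0.15 for SOX17 (adjusted p = 0.00196). SOX17 was lower with each pool alone. The part of the smaller depletion of PAX8 in siDual in the results below was not tested. The strand used in counting is not given in the sources used here, so reads of PAX8 and of its antisense gene PAX8-AS1 cannot be told apart.

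In all, 5270 genes departed from the log-additive level at an adjusted p under 0.05. Of these, 2530 lay above it (12.0% of genes tested) and 2740 below it (13.0%), with 671 and 947 of them at least 2-fold away. With library totals in place of TMM scaling, 3550 lay above and 2042 below, and the median contrast moved to 0.113. The median contrast over all genes tested was 0.00583. Sorting genes by what each pool did alone separated the directions almost completely. Among 3478 genes higher in both siPAX8 and siSOX17, 2196 (63.1%) were below the log-additive level and 0 above it. Among 3235 genes lower in both, 2031 (62.8%) were above it and 4 below. The joint change was therefore smaller than the combined single changes for nearly every gene called in these classes, on the way up as on the way down. The classes and the contrast use the same libraries, so these counts are a description and not a test of the classes. Of 3459 genes changed only in siPAX8, 246 (7.11%) were above and 219 (6.33%) below. Of 3539 changed only in siSOX17, 182 (5.14%) were above and 215 (6.08%) below, and 109 or 111 were above without siSOX17 replicate 2 or siDual replicate 2.

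**Figure D1:**
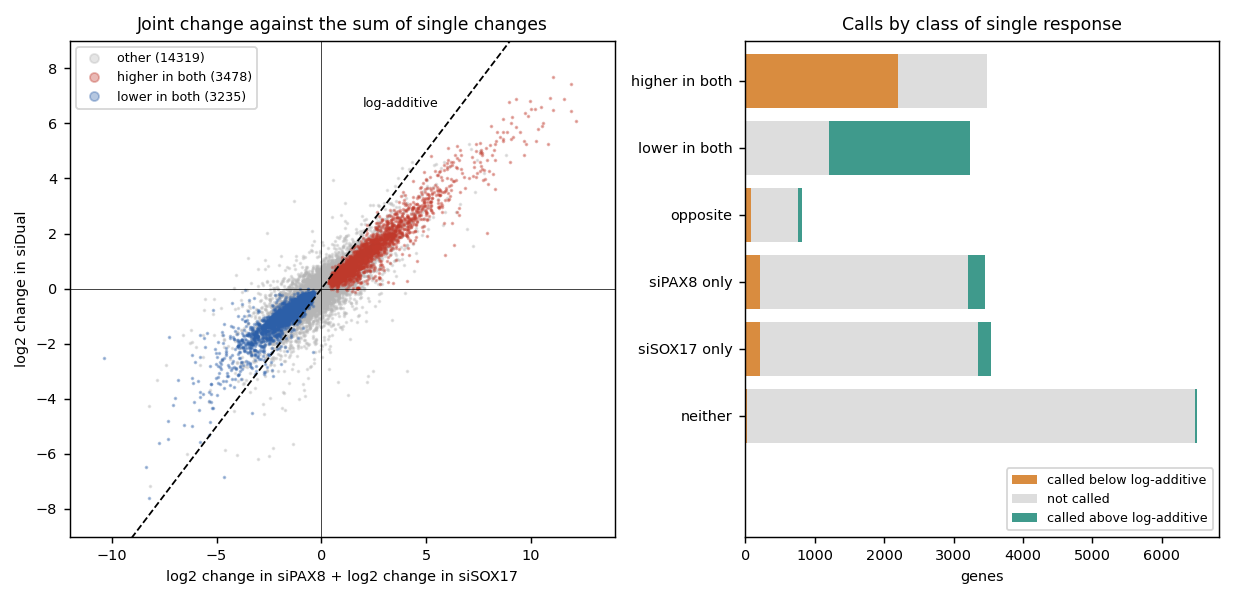
Left, each point is a gene, with the sum of its log2 changes in siPAX8 and siSOX17 on the horizontal axis and its log2 change in siDual on the vertical axis, all against the mean of the controls; the dashed line is the log-additive level. Right, bars count the genes of each class by call; genes higher in both fall below the line and genes lower in both fall above it.

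More genes were called against the controls than in the contrast. Against the controls, 26.9% of genes were higher and 25.4% lower in siPAX8, 27.2% and 25.5% in siSOX17, and 28.9% and 27.3% in siDual. Fewer genes separated the joint from the single knockdowns, with 11.0% higher and 8.55% lower in siDual than in siPAX8, and 7.85% higher and 7.82% lower in siDual than in siSOX17. These last counts leaned on single libraries. The 4115 genes called between siDual and siPAX8 became 2675 without siPAX8 replicate 2, 2636 without siDual replicate 1 and 2701 without siDual replicate 2. The 3297 called between siDual and siSOX17 became 2081 without siSOX17 replicate 2 and 1822 without siDual replicate 2.

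For genes with strong responses to each pool, the joint response was about the size of the stronger single one. Of the 858 genes higher by at least 2-fold in both single knockdowns, the median change was 4.07-fold in the stronger of them and 4.43-fold in siDual, against 11.4-fold had the changes multiplied. In this group 648 genes were called below the log-additive level, 548 lay beyond the stronger single knockdown in value, and 120 were called beyond both. Of the 499 genes lower by at least 2-fold in both, the median decrease was 3.38-fold in the stronger single knockdown and 3.21-fold in siDual, against 8.63-fold for the product. Here 343 were called above the log-additive level and 24 were called beyond both single knockdowns. In neither group did any gene have a 95% interval of the contrast lying wholly within 0.5 of 0, so none could be shown to be close to log-additive. Both groups were chosen for large values in libraries that the contrast subtracts, so these counts and medians are a description.

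**Figure D2:**
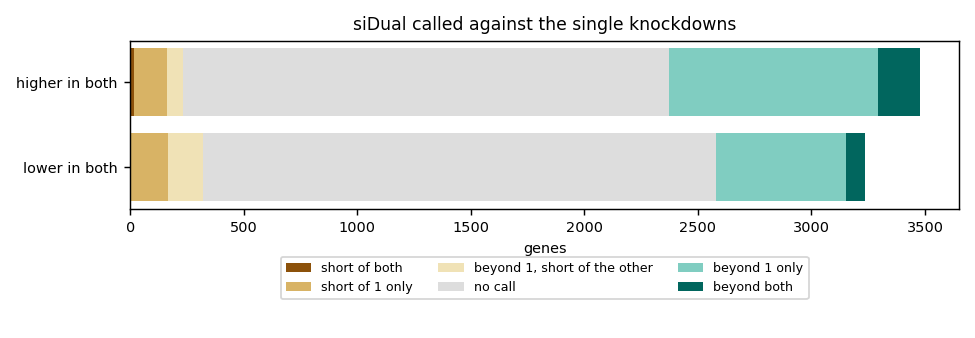
Bars count genes of the classes higher in both and lower in both by where siDual was called relative to the single knockdowns. In the first class 185 genes were beyond both, 920 beyond 1 only, 70 beyond 1 and short of the other, 146 short of 1 only, 17 short of both, and 2140 had no call against either; in the second the counts were 84, 573, 154, 167, 1 and 2256.

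A few genes moved less with both pools than with either. Of the 17 genes higher in both single knockdowns and called short of both in siDual, 9 were UGT1A genes, which overlap and share their last exons, so their counts may not be separate. Among the other 8, seen after sorting, were TGFBR2, the type II TGF-beta receptor (0.95 in siPAX8, 0.28 in siSOX17 and -0.05 in siDual, on the log2 scale), and the transcription factor CREB5. WNT5A, a non-canonical Wnt ligand, was the single gene of this kind among genes lower in both. It stood at 21.3 to 27.5 CPM in the controls, 16.6 and 20.2 in siPAX8, 14.3 and 15.9 in siSOX17, and 22.3 and 24.9 in siDual. Its siDual libraries lay within the control range, and its contrast was 1.02 ± 0.15 (adjusted p = 6.09e-05).

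Additivity can also be asked of the CPM themselves, where the joint level would equal the sum of both single levels minus the control level. Of the 2530 genes above the log-additive level, 2510 also exceeded this CPM-additive level. For 607 of them that level was below 0, since the single knockdowns together removed more than the control held, so no CPM-additive outcome was possible. Of the 2740 genes below, 2677 were below on the CPM scale too and 63 were above it. No test was made on that scale. The genes called above on the log2 scale but not on the CPM scale were mostly of the class with opposite single responses, 19 of 20.

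Several secreted factors rose in both single knockdowns and fell far short of the log-additive level. ANGPTL4, an inhibitor of lipoprotein lipase (ENSG00000167772.11, plus strand of chromosome 19 at 8363289 to 8374373), stood at 0.896, 1.19, 0.781 and 0.638 CPM in the controls, 13.4 and 15.1 in siPAX8, 29.9 and 36.2 in siSOX17, and 50.8 and 52.0 in siDual. The groups did not overlap, and siDual was the highest. Its log2 changes were 4.04 ± 0.13, 5.25 ± 0.12 and 5.89 ± 0.12, and the log-additive level would have been 546 CPM. The contrast was -3.40 ± 0.18 (adjusted p = 4.30e-10). On the CPM scale siDual was slightly above the CPM-additive level of 46.5.

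IL11, a cytokine of the gp130 family (ENSG00000095752.6, minus strand of chromosome 19 at 55364389 to 55370463), behaved otherwise. It stood at 1.5 to 3.02 CPM in the controls, 21.5 and 22.4 in siPAX8, 96.4 and 115 in siSOX17, and 89.2 and 92.9 in siDual. Both siDual libraries were below both siSOX17 libraries, but the difference did not pass the test (log2 difference -0.22 ± 0.11, adjusted p = 0.194). The contrast was -3.60 ± 0.16 (adjusted p = 5.62e-11). NPPB, the precursor of B-type natriuretic peptide, had the same form, with 64.3 and 93.9 CPM in siPAX8, 417 and 399.6 in siSOX17 and 415 and 409.6 in siDual, and a contrast of -2.97 ± 0.23.

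HBEGF, a ligand of the EGF receptor (ENSG00000113070.7, minus strand of chromosome 5 at 140332843 to 140346631), followed the PAX8 pool instead. It stood at 24.5 to 30.7 CPM in the controls, 363 and 297 in siPAX8, 137 and 149 in siSOX17, and 339 and 323 in siDual. The siDual values lay between the siPAX8 libraries, and the contrast was -2.36 ± 0.14 (adjusted p = 1.71e-09). TGFB2, a TGF-beta ligand (ENSG00000092969.11, plus strand of chromosome 1 at 218346235 to 218444619), reached 50.3 and 58.6 CPM in siPAX8, 67.4 and 79.8 in siSOX17 and 82.4 and 86.3 in siDual, from 8.84 to 11.7 in the controls. Its siDual libraries were the highest but were not called above siSOX17 (adjusted p = 0.184), and its contrast was -2.20 ± 0.13.

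Other genes of large negative contrast covered several functions. FGF1, a fibroblast growth factor, had a contrast of -3.12 ± 0.24 and changed 13.9-fold in siPAX8, 13.8-fold in siSOX17 and 22.1-fold in siDual. CD274, which encodes the immune checkpoint ligand PD-L1, had a contrast of -2.66 ± 0.28 and was not called different between siDual and either single knockdown. CDKN1A, the CDK inhibitor p21, rose from 8.42 to 10.0 CPM in the controls to 24.5 and 28.1 in siPAX8, 42.1 and 40.2 in siSOX17 and 44.2 and 45.2 in siDual, with a contrast of -1.37 ± 0.15.

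**Figure D3:**
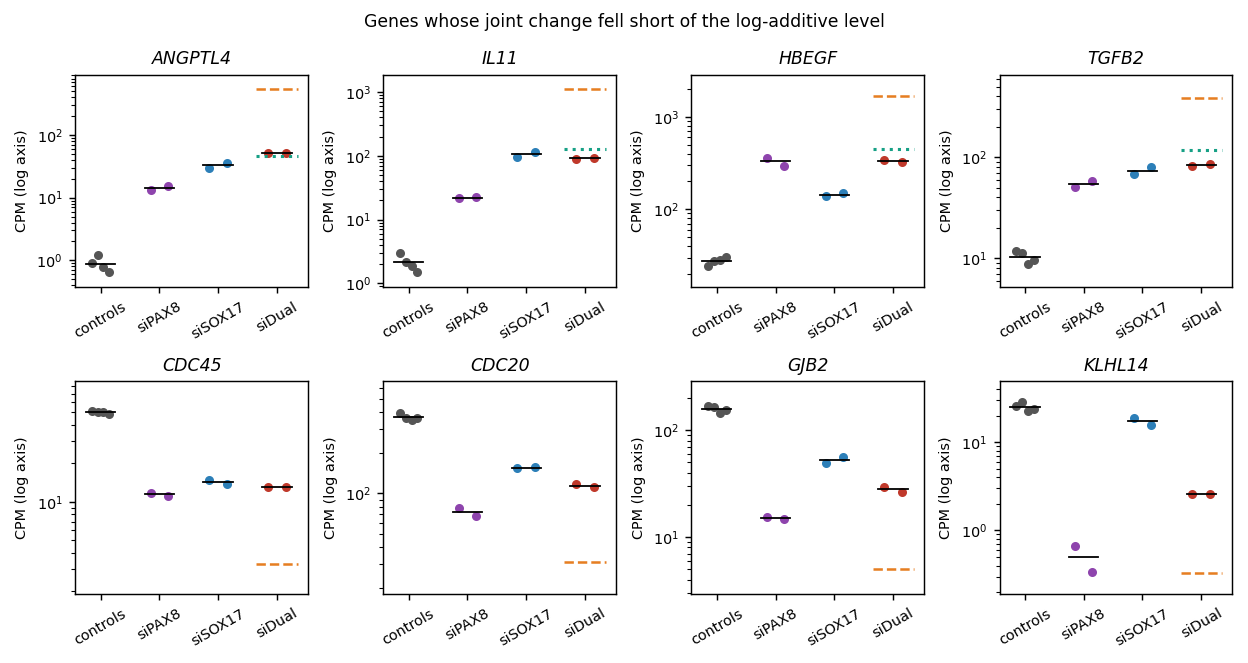
CPM of each library on log axes for 8 genes, with black bars at group means. The dashed line over siDual is the log-additive level and the dotted line, where it is above 0, the CPM-additive level; siDual lies under the dashed line for the 4 genes that rose and over it for the 4 that fell.

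Cell division genes gave the most uniform departure among genes that fell. All 40 members of the list of G1/S and DNA replication genes were above the log-additive level, as were all 35 of the G2/M and mitosis list and 19 of 20 of the list of homologous recombination and Fanconi repair genes, where 12.0% of all genes tested were. The exception was PALB2, the BRCA2 partner, at 0.29. Median contrasts were 1.31, 1.31 and 1.17. For G1/S genes the median log2 change was -1.65 in siPAX8, -1.19 in siSOX17 and -1.57 in siDual, so the joint median lay between the single ones, near that of the PAX8 pool. For G2/M genes the medians were -1.6, -0.856 and -1.15, with siDual between the single knockdowns. The summed G2/M level was 5218 to 5591 CPM in the controls, 1777 and 1758 in siPAX8, 3150 and 3445 in siSOX17, and 2602 and 2502 in siDual. The groups did not overlap.

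CDC45, a subunit of the replicative helicase (ENSG00000093009.9, plus strand of chromosome 22 at 19479459 to 19520612), stood at 48.4 to 51.5 CPM in the controls, 11.8 and 11.1 in siPAX8, 14.9 and 13.7 in siSOX17, and 13.0 and 13.2 in siDual. All 6 knockdown libraries were close together and far from the controls, and the log-additive level would have been 3.26 CPM. The contrast was 2.01 ± 0.12 (adjusted p = 1.21e-09). CDC20, the activator of the anaphase-promoting complex (ENSG00000117399.13, plus strand of chromosome 1 at 43358955 to 43363203), stood at 347 to 395 CPM in the controls, 77.4 and 68.7 in siPAX8, 153 and 157 in siSOX17, and 117 and 111 in siDual. It was called higher in siDual than in siPAX8 and lower than in siSOX17, and its contrast was 1.88 ± 0.11 (adjusted p = 1.42e-09). CCNA2, cyclin A2, was ordered the same way (log2 changes of -2.72 ± 0.09, -0.69 ± 0.08 and -1.67 ± 0.09), with a contrast of 1.73 ± 0.13. E2F2, a transcription factor of S-phase genes, changed by -2.87 ± 0.15, -1.96 ± 0.14 and -2.83 ± 0.15 and had a contrast of 1.99 ± 0.24. Among repair genes, the contrast was 1.61 ± 0.15 for RAD54L, a translocase of homologous recombination, and 1.6 ± 0.12 for FANCD2 of the Fanconi pathway.

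Promoters of these lists carry sequence elements known from cell cycle genes, and the stretches below show them for members with large contrasts. They come from RefSeq promoters on GRCh38.p14, which were matched for 12869 of the genes tested and run from 250 bases before to 50 bases after the start site. E2F-type matches (TTTCCCGC or TTTGGCGC, either strand, exact) were in 19 of 34 G1/S promoters (55.9%), 3.34% of tested genes with a promoter, and 2.32% of all 27195 promoters. The cell cycle homology region TTTGAA, on either strand, was in 20 of 29 G2/M promoters (69.0%), 10.1% of tested genes and 15.4% of all promoters. Over the whole class of genes lower in both and above the log-additive level, 7.94% of promoters held the E2F match and 14.6% TTTGAA. Capitals mark the match on the gene's strand, and GCGGGAAA is the reverse complement of TTTCCCGC. A match is a description of these letters and not a bound site. E2F2 lies at chr1:23531234-23531315 on the minus strand, UHRF1 at chr19:4909447-4909500 on the plus strand, CDC20 at chr1:43358876-43358961 on the plus strand, and TOP2A at chr17:40418002-40418090 on the minus strand.
E2F2: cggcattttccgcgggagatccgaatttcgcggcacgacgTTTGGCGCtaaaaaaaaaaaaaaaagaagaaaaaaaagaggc
UHRF1: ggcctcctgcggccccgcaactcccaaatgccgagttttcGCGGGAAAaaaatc
CDC20: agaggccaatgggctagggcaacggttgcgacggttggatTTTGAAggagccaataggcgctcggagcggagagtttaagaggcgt
TOP2A: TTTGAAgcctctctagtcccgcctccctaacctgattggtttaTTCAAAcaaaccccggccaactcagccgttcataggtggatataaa

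UHRF1, a maintenance factor of DNA methylation, changed by -2.37 in siPAX8, -1.75 in siSOX17 and -2.18 in siDual on the log2 scale, with a contrast of 1.94 ± 0.32. TOP2A, topoisomerase II alpha, changed by -1.95, -1.31 and -1.68, with a contrast of 1.58 ± 0.12. Among genes that rose in both and fell short, the AP-1 element TGANTCA was in 7.10% of promoters, beside 5.02% of tested genes and 7.73% of all promoters. IL11, at chr19:55370513-55370599 on the minus strand, had 1 match in the stretch shown, in capitals. ANGPTL4 had 0 in the 250 bases before its start site. The SOX element ACAATGG was in 1.41% of these promoters, 1.51% of those of genes lower in both and above, and 2.00% of tested genes. The paired-box core GCGTGAC was in 3.21%, 4.40% and 3.64%. SLC34A2 had a match to neither element in the 250 bases before its start site. Both strands were searched.
IL11: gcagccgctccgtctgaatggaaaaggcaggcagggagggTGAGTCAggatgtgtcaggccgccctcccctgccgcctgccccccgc

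Lists of genes that rose in the single knockdowns mostly held calls below the log-additive level, against 13.0% of all genes. In the list of mesenchymal genes 14 of 24 tested were below and 0 above, and its median log2 change was 1.08 in siPAX8, 1.28 in siSOX17 and 1.71 in siDual. FN1, fibronectin, fell from the level of the SOX17 pool when the PAX8 pool was added, from 17.0 and 17.1 CPM to 8.12 and 8.62, with a contrast of -1.57 ± 0.29. The list of basement membrane, collagen and integrin genes had 19 of 34 below, with COL17A1 (-2.39 ± 0.29) and the collagen receptor subunit ITGA2 (-1.81 ± 0.24) the largest. ITGB3, the beta 3 integrin subunit, was its 1 call above (0.63 ± 0.13), falling in siPAX8 and rising in siSOX17.

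In the list of MAPK feedback and immediate early genes 14 of 29 were below and 0 above, beside 13.0% and 12.0% of all genes. The median contrast of the list was -0.632. SPRED3, an inhibitor of this pathway, rose to 13.4 and 11.9 CPM in siPAX8 from 1.34 to 2.31 in the controls, was at 2.46 and 3.66 in siSOX17, and came back to 4.63 and 6.64 in siDual. Of the YAP and TEAD targets, 13 of 23 were below, with CCN1, a matricellular protein, at -1.21 ± 0.14. Angiogenic factors had 13 of 28 below and 2 above, the latter FGF18 (1.87 ± 0.22), which fell in all 3 knockdowns, and EFNB2 (0.39 ± 0.11). The EFNB2 call was lost without siPAX8 replicate 1 (adjusted p = 0.0738), siSOX17 replicate 1 (0.0911) or siDual replicate 2 (0.117). Squamous keratinocyte markers had 5 of 13 below, among them KRT17 (-1.89 ± 0.22) and TMEM40 (-3.03 ± 0.23), and cardiac and skeletal muscle genes 7 of 17, among them TRIM55 (-2.31 ± 0.31).

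NF-kB cytokines and chemokines departed in another way. Of 27 tested, 15 were below the log-additive level and 0 above, beside 13.0% and 12.0% of all genes tested. The median contrast was -0.962. Without siPAX8 replicate 2, 9 were below. The median log2 change was 0.292 in siPAX8 and 0.074 in siSOX17 but -0.346 in siDual, where 15 members were lower than in the controls and 9 higher. TNF stood at 12.6 to 17.1 CPM in the controls, 8.69 and 9.67 in siPAX8, 31.5 and 29.3 in siSOX17, and 8.68 and 8.93 in siDual. Its rise with the SOX17 pool was absent when the PAX8 pool was present, and the contrast was -1.10 ± 0.21 (adjusted p = 0.000755). IL6 stood at 26.9 to 56.5 CPM in the controls, 57.1 and 93.8 in siPAX8, 23.9 and 21.0 in siSOX17, and 14.9 and 20.2 in siDual. Here the siPAX8 libraries were highest and the siDual libraries lowest, with a contrast of -1.36 ± 0.26 (adjusted p = 0.000728). The difference between siDual and siSOX17 did not pass the test (log2 difference -0.35 ± 0.21, adjusted p = 0.293). CXCL8, a neutrophil chemokine that passed in neither single knockdown, was at 45.0 and 76.6 CPM in siDual and 108 to 291 in the other 8 libraries of the contrast, with a contrast of -1.34 ± 0.37 (adjusted p = 0.0116). Its call was lost without siPAX8 replicate 2 (-0.79, adjusted p = 0.12), without siDual replicate 1 (-1.0, 0.0836) and with DESeq2 (0.0711). CXCL8 was also lower in siWT1, by 4.61-fold (adjusted p = 3.75e-06). The log2 change of TNF was -1.25 ± 0.15 in siMECOM (adjusted p = 2.87e-06) and -1.32 ± 0.15 in siWT1 (adjusted p = 1.20e-06), beside -0.75 in siDual. IL6 was 7.18-fold lower in siMECOM (adjusted p = 4.54e-09) and was not called in siWT1 (adjusted p = 0.353).

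Interferon-stimulated and antigen presentation genes had 20 of 47 below, beside 13.0% of all genes tested. The 20 became 12 without siDual replicate 2 and 13 without siSOX17 replicate 1. GBP1, an interferon-induced GTPase, stood at 59.7 to 68.0 CPM in the controls, 123 and 124 in siPAX8, 181 and 181 in siSOX17, and 122 and 147 in siDual, with a contrast of -1.37 ± 0.12. It was called lower in siDual than in siSOX17 (adjusted p = 0.00187). GBP5, another of these GTPases, was the 1 call above (1.16 ± 0.37), and lost it without siSOX17 replicate 2 (adjusted p = 0.218), without siDual replicate 2 (0.265) and against siNT2 alone (0.0735). Its 2 siSOX17 libraries were at 0.348 and 0.186 CPM, so the value rests on few counts.

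**Figure D4:**
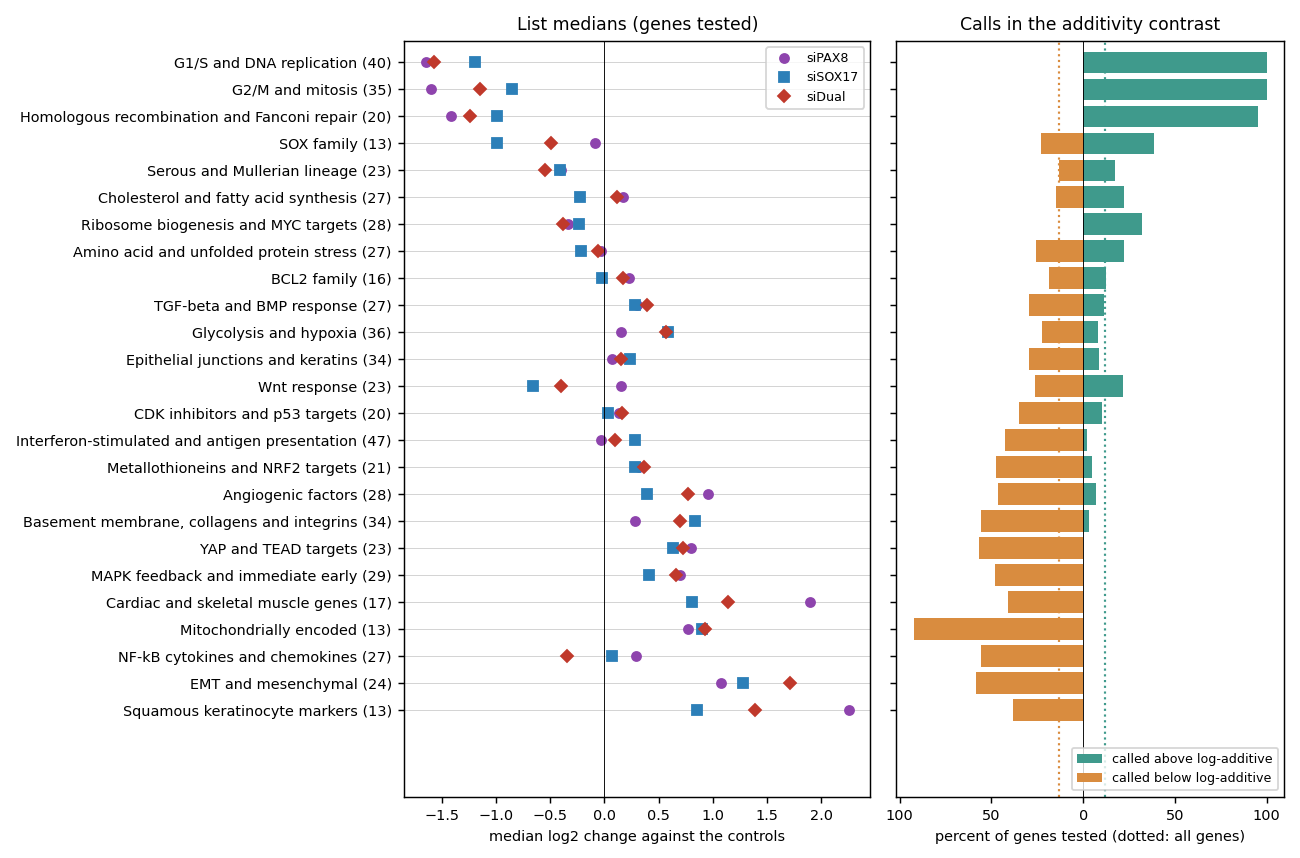
Left, the median log2 change against the controls in siPAX8, siSOX17 and siDual for each list, with the number of genes tested in brackets. Right, the percent of those genes called above (to the right of 0) or below (to the left) the log-additive level, with dotted lines at the 12.0% and 13.0% of all genes; the cell division lists are nearly all above and the mitochondrially encoded list nearly all below.

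Metabolic and stress lists were divided, beside 12.0% above and 13.0% below over all genes tested. In the list of amino acid and unfolded protein stress genes 6 of 27 were above and 7 below (8 and 4 without TMM scaling), or 4 below without siPAX8 replicate 2, siSOX17 replicate 2 or siDual replicate 1. Enzymes of serine synthesis, PHGDH (1.26 ± 0.13) and PSAT1 (1.02 ± 0.10), fell in both single knockdowns and were above, while VLDLR (-0.95 ± 0.10), a lipoprotein receptor, rose in both and was below. Of the cholesterol and fatty acid synthesis genes, 6 of 27 were above and 4 below (13 and 3 without TMM scaling), and 2 were above without siDual replicate 1, 3 without siNT1 replicate 2, siPAX8 replicate 2 or siSOX17 replicate 2. The 4 below became 2 without siPAX8 replicate 1, siSOX17 replicate 2 or siDual replicate 2. Ribosome biogenesis genes had 9 of 28 above (14 without TMM scaling) and 0 below, with NOP56, a nucleolar protein, at 0.74 ± 0.11. Of the CDK inhibitors and p53 targets, 7 of 20 were below, CDKN1A and GDF15 most, and 2 above, CDKN2C (1.42 ± 0.19) and MDM2 (0.65 ± 0.16). Without TMM scaling 5 of this list were above and 4 below. SESN2, a stress-induced regulator of mTORC1, rose in siPAX8 alone, to 122 and 105 CPM from 50.5 to 60.6, and was at 65.5 and 60.2 CPM in siDual. The BCL2 family had 2 of 16 above and 3 below, near the shares over all genes. The antiapoptotic BCL2L1 was at -0.63 ± 0.11 and BCL2L12 at 0.80 ± 0.11.

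Mitochondrially encoded genes were below in 12 of 13 cases, all but MT-ND3 (-0.47), beside 13.0% of all genes tested. The median contrast of the list was -0.704. MT-ND1, a subunit of respiratory complex I, stood at 1838 to 2369 CPM in the controls, 4341 and 3905 in siPAX8, 4017 and 4180.2 in siSOX17, and 4536 and 3967 in siDual. The 6 knockdown libraries overlapped one another and none overlapped the controls, and the contrast was -0.93 ± 0.16 (adjusted p = 0.000192). The mitochondrial share of counts given above moves with these values, and its part in them was not tested. With these genes left out before scaling, 5276 genes departed from the log-additive level.

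Genes that answered to 1 pool alone also came back toward the control level in siDual. The 473 genes higher by at least 2-fold in siPAX8 and not called in siSOX17 had a median log2 change of 1.44 in siPAX8 and 0.917 in siDual, with 106 below the log-additive level and 0 above. For the 350 lower in siPAX8 only, the medians were -1.45 and -0.865, with 71 above and 2 below, of which HGD, an enzyme of tyrosine breakdown, fell further in siDual (-1.45 and -2.28). The 516 genes higher in siSOX17 only had medians of 1.53 and 1.01, with 105 below, and the 414 lower in siSOX17 only had medians of -1.50 and -0.958, with 67 above. These genes were chosen for a large value in libraries that the contrast subtracts, so the medians are a description, and no test of them was made.

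KLHL14, a Kelch-like protein (ENSG00000197705.9, minus strand of chromosome 18 at 32672671 to 32773062), had the largest positive contrast among protein-coding genes whose mean log2 CPM was 1 or more. It stood at 22.2 to 28.7 CPM in the controls, 0.658 and 0.334 in siPAX8, 18.7 and 15.7 in siSOX17, and 2.61 and 2.59 in siDual. The groups did not overlap, and siDual kept 10.4% of the control level where siPAX8 kept 1.99%. The contrast was 2.91 ± 0.25 (adjusted p = 9.32e-08), on 31 and 15 counts in siPAX8. PAX8 itself kept 25.2% in siDual and 17.4% in siPAX8, as given above. GJB2, connexin 26 (ENSG00000165474.5, minus strand of chromosome 13 at 20187470 to 20192898), was ordered likewise, at 146 to 169 CPM in the controls, 15.5 and 14.8 in siPAX8, 48.9 and 56.6 in siSOX17, and 29.7 and 26.7 in siDual. Its contrast was 2.49 ± 0.13 (adjusted p = 4.30e-10).

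The same return was seen after the SOX17 pool, where SOX17 itself was at 13.0% of control in siSOX17 and 15.2% in siDual. AXIN2, a feedback inhibitor and standard target of Wnt signalling, stood at 6.93 to 7.31 CPM in the controls, 7.98 and 8.78 in siPAX8, 0.871 and 1.11 in siSOX17, and 3.43 and 3.53 in siDual. The siDual libraries lay between siSOX17 and the controls, and the contrast was 1.58 ± 0.20 (adjusted p = 8.67e-06). GREM1, a secreted BMP antagonist, fell to 0.871 and 1.46 CPM in siSOX17 but to 3.43 and 4.30 in siDual, with a contrast of 2.41 ± 0.28. Its control pools differed, at 10.8 and 14.2 CPM in siNT1 and 22.6 and 25.2 in siNT2 (adjusted p = 0.0101). SOX5, an HMG-box factor, was at 0.274 and 0.292 CPM in siSOX17 and 1.36 and 1.10 in siDual (1.38 ± 0.34), and FLI1, an ETS factor, at 1.04 and 0.610 and then 3.62 and 3.26 (1.34 ± 0.26). Both rose with the PAX8 pool alone, by 0.72 for SOX5 and 0.70 for FLI1 on the log2 scale. On the CPM scale both departed the other way, with siDual means of 1.23 and 3.44 CPM beside CPM-additive levels of 3.27 and 7.92.

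Genes moved in opposite directions by the pools numbered 817, of which 52 (6.36%) were above and 82 (10.0%) below the log-additive level. Both shares were under those over all genes tested, 12.0% and 13.0%. Leaving out a library gave at lowest 28 above (without siSOX17 replicate 2) and 49 below (without siPAX8 replicate 2 or siSOX17 replicate 2). AKR1B1, aldose reductase, came back to the control range: it was at 193 to 242 CPM in the controls, 173 and 185 in siPAX8, 551 and 526 in siSOX17, and 198 and 227 in siDual, with a contrast of -1.13 ± 0.13. CSPG4, the proteoglycan NG2, went the other way: 12.4 and 9.96 CPM in siPAX8, 1.74 and 1.54 in siSOX17, 7.58 and 7.56 in siDual and 4.01 to 5.28 in the controls, with a contrast of 0.94 ± 0.22.

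For some genes the joint change was larger than the combined single changes, though rarely in the classes higher or lower in both. SLC34A2, the sodium-phosphate cotransporter NaPi2b (ENSG00000157765.11, plus strand of chromosome 4 at 25655301 to 25678748), stood at 688 to 813 CPM in the controls, 636 and 651 in siPAX8, 669 and 586 in siSOX17, and 149 and 147 in siDual. The single knockdowns were lower by 1.14-fold and 1.17-fold, while siDual was 4.97-fold lower and far from all other libraries. The contrast was -1.9 ± 0.11 (adjusted p = 1.88e-09), and the log-additive level 549 CPM. Its log2 change was 0.14 ± 0.07 (adjusted p = 0.179) in siMECOM and -0.19 ± 0.08 (adjusted p = 0.0498) in siWT1.

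SLC34A2 was 1 of the 4 genes lower in both and below the log-additive level. MEOX1, a homeobox factor, was another, at 52.2 to 57.7 CPM in the controls, 46.6 and 41.0 in siPAX8, 41.8 and 36.5 in siSOX17, and 22.3 and 19.6 in siDual, with a contrast of -0.55 ± 0.13 (adjusted p = 0.00429). It fell as far in siWT1 (-1.48 ± 0.09) as in siDual (-1.42). DEPTOR, an inhibitor of mTOR complexes, had a contrast of -0.79 ± 0.20, but not without siDual replicate 1 (-0.60, adjusted p = 0.064). ANKRD33B had one of -0.62 ± 0.12, which against siNT2 alone was -0.34 (adjusted p = 0.0709). On the CPM scale DEPTOR departed the other way, with 1.54 CPM in siDual beside a CPM-additive level of 0.763. The 4 calls became 2 on leaving out siNT2 replicate 1, siPAX8 replicate 2, siSOX17 replicate 2 or siDual replicate 1.

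GDF15, a stress-induced cytokine (ENSG00000130513.6, plus strand of chromosome 19 at 18374731 to 18389176), stood at 214 to 323 CPM in the controls, 227 and 189 in siPAX8, 328 and 226 in siSOX17, and 80.9 and 60.1 in siDual. The single knockdowns overlapped the controls and siDual did not overlap any of them. GDF15 was still called lower in siPAX8 (-0.38 ± 0.14, adjusted p = 0.0249), and was not called in siSOX17 (0.04 ± 0.13, adjusted p = 0.846). The contrast was -1.6 ± 0.20 (adjusted p = 9.79e-06). The log2 change was -2.57 ± 0.15 (adjusted p = 3.12e-10) in siMECOM, so a lower GDF15 level was not particular to siDual.

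Of the 6504 genes called in neither single knockdown, 19 (0.292%) were above the log-additive level and 24 (0.369%) below. Over all genes tested the shares were 12.0% and 13.0%. Without siPAX8 replicate 1, 8 of this class were above. The p-values were adjusted over all genes tested, so they do not limit the share of false calls within this class. LAMA3, a chain of laminin 332, stood at 326 to 409.8 CPM in the controls, 332 and 430.2 in siPAX8, 395 and 393 in siSOX17, and 204 and 225 in siDual. Of these 10 libraries, the 2 of siDual lay below all others, with a contrast of -0.94 ± 0.19 (adjusted p = 0.00131). LAMA3 was also lower in siMECOM (-0.66 ± 0.13, adjusted p = 0.00066) and siWT1 (-0.83 ± 0.13, adjusted p = 6.28e-05), where siDual was at -0.77. GULP1, an adaptor of phagocytosis, was at 11.5 and 12.2 CPM in siDual beside 15.1 to 18.1 in the others (-0.72 ± 0.14). S1PR5, a receptor of sphingosine-1-phosphate, rose to 13.0 and 10.7 CPM in siDual, from 3.11 to 5.31 in the other 8 libraries, with a contrast of 1.14 ± 0.22 (adjusted p = 0.000808). TSPAN5, a tetraspanin, was at 4.66 and 4.88 CPM in siDual and 2.72 to 3.89 in the others (0.90 ± 0.20).

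HMOX1, heme oxygenase 1, was at 32.6 and 41.7 CPM in siDual and 17.5 to 34.3 in the other 8 libraries of the contrast, with a contrast of 0.81 ± 0.22 (adjusted p = 0.00997). One siNT2 library overlapped siDual, and HMOX1 was 1.77-fold lower in siMECOM and 1.73-fold lower in siWT1. The call was lost against siNT1 alone (0.44, adjusted p = 0.201) and without siPAX8 replicate 1 (0.0577), siSOX17 replicate 1 (0.061) or siDual replicate 2 (0.0759).

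**Figure D5:**
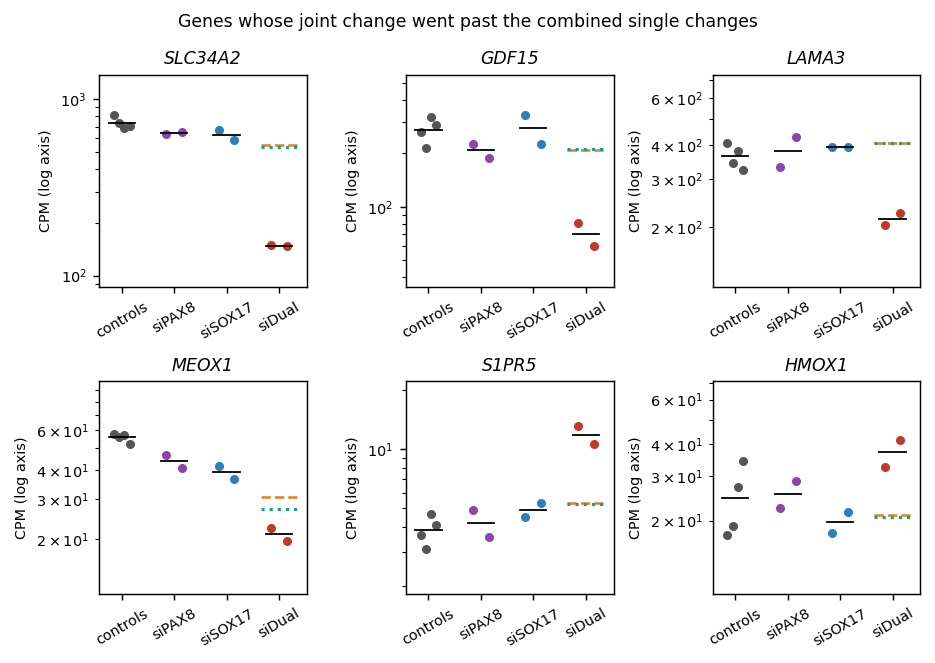
CPM of each library on log axes for 6 genes whose joint change went past the combined single changes, with black bars at group means. The dashed line over siDual is the log-additive level and the dotted line the CPM-additive level; siDual lies under both for SLC34A2, GDF15, LAMA3 and MEOX1 and over both for S1PR5 and HMOX1.

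Where a list had 5 or fewer calls in a direction, leaving out 1 library moved that count by at most 3. Signalling lists with calls on both sides were those of the TGF-beta and BMP response (3 of 27 above, 8 below) and the Wnt response (5 of 23 above, 6 below). Without TMM scaling these were 6 and 7, and 7 and 4. With TMM scaling, 12.0% of all genes tested were above and 13.0% below. PMEPA1, a TGF-beta target, rose in both and was below (-1.64 ± 0.14), as was WNT4, a Wnt ligand (-1.45 ± 0.21). ID2, an inhibitor of helix-loop-helix factors, was above (0.57 ± 0.20). Glycolysis and hypoxia genes had 3 of 36 above and 8 below, with CA12, a carbonic anhydrase, above (1.4 ± 0.14) and ADM, adrenomedullin, below (-1.16 ± 0.14). Metallothioneins and NRF2 targets had 1 of 21 above, HMOX1, and 10 below, with OSGIN1 at -1.09 ± 0.16.

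Lineage genes were not uniform. In the list of serous and Mullerian genes 4 of 23 were above, namely KLHL14, SOX17 (itself targeted), MECOM and EMX2. The 3 below included CD24 (-0.95 ± 0.12) and BCAM. These counts were near the shares over all genes tested, 12.0% above and 13.0% below. MECOM, a zinc-finger factor, had a contrast of 0.56 ± 0.20 (adjusted p = 0.0466) that kept its size but passed in few alternatives, with an adjusted p of 0.2 in DESeq2 and 0.0505 to 0.142 on leaving out any 1 of the 10 libraries. WT1 was too low to read (0.44 ± 0.68, adjusted p = 0.70). In the SOX family 5 of 13 were above and 3 below. SOX12 fell in both and was above (1.03 ± 0.15), while SOX9 rose to 2.89 and 3.03 CPM in siPAX8 and 3.31 and 3.26 in siSOX17 but reached 2.10 and 2.21 in siDual (-1.38 ± 0.24). Of the genes of epithelial junctions and keratins 3 of 34 were above and 10 below. CLDN1, a tight junction claudin, was at -1.23 ± 0.12 and KRT7, a keratin of these carcinomas, at -0.71 ± 0.14.

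Markers of other cell types were low. Of 10 each for fibroblasts, endothelium and leukocytes, 8, 8 and 3 were tested, and their summed levels were 86.5 to 104.7, 15.25 to 18.69 and 18.88 to 22.72 CPM in the controls. In siDual they were 100.3 and 90.5, 11.23 and 12.85, and 44.12 and 41.63 CPM, the last almost all from CD68, a lysosomal protein of many cell types. PTPRC, the pan-leukocyte marker, was not among the genes that passed the filter. Of the endothelial markers ESAM (1.95 ± 0.58) and CLDN5 (3.41 ± 1.22), both junction proteins at very low counts, were above, and 0 were without siPAX8 replicate 2, siSOX17 replicate 1 or siDual replicate 2. CDH5, VE-cadherin, was the 1 endothelial marker below (-2.08 ± 0.19): it rose to 12.4 and 12.6 CPM in siPAX8 from 3.92 to 5.32 in the controls, and was at 2.71 and 3.17 in siDual. In fibroblast markers 1 was above, FBLN1 (0.96 ± 0.20), and 1 below, COL1A1 (-0.47 ± 0.12), a call lost against siNT2 alone (-0.34, adjusted p = 0.0615). Over all genes tested, 12.0% were above and 13.0% below, so the fibroblast counts, of 8 tested, were near those shares.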

How the data were processed

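The 14 OVCAR4 libraries were sequenced by a BGI protocol, per the labels. The authors deposited raw counts of reads per gene on hg38. STAR 2.5.1b and featureCounts 1.6.3 are named in the submitters' processing notes, and the annotation and strand are not given in the sources used here. GENCODE 29 supplied names and positions by identifier for 57878 of 58219 genes.

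Genes kept by filterByExpr (count 10, total 15) were scaled by TMM (trimmed mean of M-values). All 7 groups entered 1 quasi-likelihood model in edgeR 4.0.16 under R 4.3.3. It had 7 residual degrees of freedom and a biological coefficient of variation of 7.57%. Adjusted p-values are Benjamini-Hochberg over 21032 genes, and a call needs a value under 0.05. An SE is the log2 value over the root of F. Classes follow the calls in siPAX8 and siSOX17. The log-additive CPM comes from group means of log2 CPM.

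The naming rule took the targeted genes and, among called protein-coding genes (mean log2 CPM 1 or more, both siDual libraries on 1 side of the log-additive level), the 10 largest contrasts each way, the 5 largest each way in the classes higher in both, lower in both, opposite and neither, and up to 2 per list and direction. HGD, TGFBR2, CREB5, UHRF1, TOP2A, PALB2, MT-ND3, EMX2, BCAM, ESAM and CLDN5 were named after their values were seen. Members and lists were chosen with earlier results of these data known. Lists were described, not tested. Alternatives were DESeq2 1.42.0, other scalings and filters, single control pools, a replicate block and leaving out each library. The fit was tested on simulated data.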

Additional observations from a re-analysis of the deposited data

Results flagged for a closer look

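The contrast is itself a test of whether a pool acts alike in the absence and the presence of the other, so every gene called in it differs in this sense. The genes below are those where a pool alone and the same pool added to the other moved a gene in opposite directions, both called by edgeR's quasi-likelihood test. There were 396 such genes for the SOX17 pool, 123 of them higher and 273 lower with the pool alone, and 185 for the PAX8 pool, 134 and 51. Of these, 8 and 7 changed by at least 2-fold in both settings. Given for each pool are the 8 genes whose smaller change was largest among protein-coding genes of mean log2 CPM 1 or more. Of the 2-fold genes, only ADAMTS14 and KCNK3 pass that limit. None is given an explanation.

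For the SOX17 pool, ADAMTS14, a metalloproteinase that processes procollagen, rose by 1.63 on the log2 scale with the pool alone and fell by 1.31 when it was added to the PAX8 pool, a contrast of -2.94. SPRED3 (-1.96) and CREB5 (-1.78) had the same form. The reverse, lower alone and higher when added, was seen in GJB2 (2.49), PSRC1 (1.71), YBX2 (1.80), FOXM1 (1.41) and the read-through gene ARHGAP19-SLIT1 (1.59). FOXM1, a transcription factor of mitotic genes, was at 139.8 to 176 CPM in the controls, 37.8 and 40.4 in siPAX8, 84.5 and 113 in siSOX17, and 59.4 and 67.5 in siDual.

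For the PAX8 pool, KCNK3, a potassium channel, rose by 1.41 with the pool alone and fell by 1.33 when it was added to the SOX17 pool, a contrast of -2.74. The same form held for SYTL2 (-2.14), ADAMTS9 (-1.96), DOK7 (-1.32), PTAFR (-2.08), CDH5 (-2.08) and ATP6V0A4 (-1.29). GREM1 (2.41) was lower alone and higher when added. PTAFR, the receptor of platelet-activating factor, was at 8.52 to 11.9 CPM in the controls, 28.4 and 26.6 in siPAX8, 44.6 and 42.5 in siSOX17, and 29.5 and 26.9 in siDual, so that siDual stood at the siPAX8 level.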

How the results depend on the processing

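The number of genes departing from the log-additive level was 5270 and ranged from 4235 to 5592 over all alternatives but the replicate block, which gave 6033; of the 5270 calls, 4010 to 5270 were kept in the same direction and 0 were called in the other. Replicate numbers were not taken to pair the libraries, since same-numbered deviations correlated at over 0.1 in 7 of 10 pairs of groups and not in all (-0.0693 to 0.40). In the class higher in both, the block gave 1 gene above instead of 0. Library totals without TMM raised the share of calls above from 48.0 to 63.5% (3550 above, 2042 below) and the median contrast to 0.113, and turned the median contrasts of 4 lists positive, TGF-beta and BMP response (-0.0792 to 0.0275), BCL2 family (-0.0126 to 0.0952), endothelial markers (-0.0726 to 0.0353) and serous markers (-0.00698 to 0.10). Against siNT2 alone, 2 genes lower in both were below and 53 opposite genes were below. Leaving out 1 library gave 28 to 51 opposite genes above and 49 to 71 below, 109 to 179 siSOX17-only genes above, 8 to 21 above in neither, 2 to 4 lower in both and below, 2636 to 4120 genes called between siDual and siPAX8, and 1822 to 3281 between siDual and siSOX17. None of the 112 named genes reversed, and up to 11 lost their call at a setting. At 2 libraries a group, small departures may be missed.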
